A study of Homo sapiens with 8 samples.

Results

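The genes described here encode proteins that build and remodel plasma lipoproteins. The 10 members were chosen by symbol: APOA1, APOA2, APOA5, APOB, APOC1, APOC2, APOC3, APOE, APOH and MTTP, of 16169 genes listed in at least 1 of 2 count tables. All 10 were listed in the first table (16040 genes) and 9 in the second (14955 genes), where APOA5 was not listed. RNA-seq was performed on Hep3B, a human hepatocellular carcinoma cell line. The first table held 2 libraries of wild-type Hep3B cells and 2 of Hep3B SOX4-/- cells, in which SOX4 had been knocked out with CRISPR/Cas9 and which were kept in puromycin. The study used 2 knockout lines, and the labels do not say which line gave which library. The second table held 2 libraries of wild-type Hep3B cells transfected with a scramble siRNA (control si) and 2 transfected with STAT6 siRNA. Apart from the puromycin, all cells were grown in the same medium with fetal bovine serum. Puromycin is named for the knockout cells alone, so its effect and that of the knockout cannot be told apart. Within each group the libraries are called library 1 and library 2, as labelled. The labels do not name separate cultures for libraries of the same group, so the p-values measure the spread between these libraries, which may be technical.

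In the liver, MTTP loads lipid onto APOB as it is made, and the particle that forms leaves the cell as very-low-density lipoprotein. APOA1 and APOA2 are the main proteins of high-density lipoprotein. The small exchangeable apolipoproteins sit on particle surfaces, where APOC2 activates lipoprotein lipase, APOC3 inhibits it, APOA5 promotes lipolysis, and APOE is a ligand for hepatic receptors. APOH, or beta-2-glycoprotein I, is a plasma glycoprotein that binds phospholipids.

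The results turn on APOC3, APOA1, APOH and MTTP. APOC3 (chr11:116829907-116833072) and APOA1 (chr11:116835751-116837622) are neighbours in the 11q23 cluster, APOH lies at chr17:66212033-66229415, and MTTP at chr4:99564130-99623997 (RefSeq, GRCh38.p14). Promoter windows of 300 bases, from 250 before to 50 after an annotated start, were read from RefSeq, GRCh38.p14, for 7 of the 10 members (APOA2, APOA5, APOC1, APOC2, APOE, APOH and MTTP). Entries for APOA1, APOB and APOC3 were missing. The windows of APOH and MTTP, which rose in SOX4 knockout cells, are printed 5′ to 3′ on the strand of the gene, with that of APOC2, whose change did not pass the test, beside them. Capitals mark letters that match a searched motif on either strand: ACAAAG, a core read by SOX factors, TTCNNNGAA, a palindrome read by STAT factors, and CAAAGTCCA, a site for HNF4. STAT6 also binds a wider spacing of that palindrome, which was not searched. The upstream MTTP window holds letters of that spacing, ttccacagaa, without capitals. The paper gives SOX4 a longer consensus, which can be written WWCAAWG with W for A or T, and this form was not searched either. The downstream MTTP window holds cattgaa, which reads TTCAATG on the other strand and matches that form, without capitals. Letters without capitals are therefore not shown to lack a SOX4 or STAT6 site. The STAT letters were settled on after the windows had been read.
APOH, minus strand, chr17:66229366-66229665: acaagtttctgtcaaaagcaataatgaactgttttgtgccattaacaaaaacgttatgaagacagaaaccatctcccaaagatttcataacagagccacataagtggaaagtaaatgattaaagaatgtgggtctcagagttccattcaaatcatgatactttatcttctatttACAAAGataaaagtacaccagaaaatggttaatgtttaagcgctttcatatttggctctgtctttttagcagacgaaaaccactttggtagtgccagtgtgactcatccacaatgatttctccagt
MTTP, upstream start, plus strand, chr4:99563880-99564179: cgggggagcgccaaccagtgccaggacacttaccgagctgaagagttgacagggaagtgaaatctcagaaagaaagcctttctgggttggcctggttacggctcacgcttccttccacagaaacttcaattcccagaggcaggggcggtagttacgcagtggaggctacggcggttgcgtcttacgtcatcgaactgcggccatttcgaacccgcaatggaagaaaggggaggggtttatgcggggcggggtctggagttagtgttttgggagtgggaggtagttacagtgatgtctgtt
MTTP, downstream start, plus strand, chr4:99574574-99574873: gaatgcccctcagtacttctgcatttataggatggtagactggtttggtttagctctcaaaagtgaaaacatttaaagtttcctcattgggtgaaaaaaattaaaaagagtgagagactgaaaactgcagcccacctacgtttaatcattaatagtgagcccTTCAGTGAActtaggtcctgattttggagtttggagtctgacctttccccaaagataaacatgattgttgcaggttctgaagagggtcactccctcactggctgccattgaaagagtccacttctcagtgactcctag
APOC2, plus strand, chr19:44945801-44946100: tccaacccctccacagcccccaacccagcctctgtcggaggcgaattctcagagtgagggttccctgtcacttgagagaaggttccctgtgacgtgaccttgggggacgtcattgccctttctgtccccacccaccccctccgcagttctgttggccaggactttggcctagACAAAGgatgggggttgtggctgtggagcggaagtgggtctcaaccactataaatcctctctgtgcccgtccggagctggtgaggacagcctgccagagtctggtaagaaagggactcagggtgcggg

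ACAAAG was found 76 bases before the APOH start and 78 bases before that of APOC2, and in 16.1% of all 35093 windows. The APOH match is preceded by T and matches WWCAAWG, while the APOC2 match is preceded by G and does not. How many windows hold WWCAAWG was not counted. TTCNNNGAA was found once among the members, as TTCAGTGAA 88 bases before the downstream MTTP start, and in 7.66% of all windows. Both MTTP transcripts that were counted are listed from chr4:99564078, so neither begins at that downstream start, chr4:99574824. No window of a member held CAAAGTCCA, which was found in 0.385% of all windows. The motif letters overlapped in no printed window. A match of letters is a description of the sequence, and the RNA-seq data do not measure binding.

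Each library held between 16266282 and 25353113 expected counts over all listed transcripts. Counts were summed per gene and scaled to CPM, the usual count relative to library size, with TMM factors, separately in each table, so levels are compared between groups within a table. Hep3B libraries expressed hepatocyte markers, all 8 of which were listed, with ALB at 7457.5 and 6824.4 CPM. The 8 markers summed to 14711.1 and 10454.8 CPM in Hep3B and to 47516.8 and 29027.7 CPM in SOX4 knockout cells, with a median log2 fold change of 1.53, and TTR (3.14) and FGB (2.53) were called higher. In the siRNA libraries the sums ran from 15385.5 to 18903.7 CPM. Of 4 markers each for enterocytes, leukocytes and fibroblasts, 2 of each list were present in the first table. SI, FABP2, CD3E, COL1A2 and DCN were not listed there. CDX2 was at 7.95 and 8.12 CPM in Hep3B and 2.35 and 1.54 CPM in the knockout (adjusted p = 0.0685, edgeR). LCT was at 0.397 and 2.16 against 0.114 and 0 CPM, too few counts for the edgeR test. DESeq2 called both lower. PTPRC was at 0 to 0.227 CPM. CD14 was at 1.14 and 1.42 CPM in Hep3B and 3.41 and 4.45 CPM in the knockout with groups that did not overlap (log2 fold change 1.61, adjusted p = 0.146, edgeR). COL1A1 was at 0.965 and 5.43 against 5.83 and 9.35 CPM (adjusted p = 0.359, edgeR), and the fibroblast gene PDGFRB rose from 2.84 and 1.27 to 9.88 and 13.9 CPM. The part of any such difference in the results below was not tested, and in bulk RNA a change in the cells present and a change in RNA per cell cannot be told apart. SOX4 was at 798.7 and 265.9 CPM in Hep3B and at 297.9 and 301.6 CPM in the knockout libraries (log2 fold change -0.83, adjusted p = 0.372). An edited gene can still be transcribed, so this value does not check the knockout. STAT6 was at 42.5 and 31.4 CPM with scramble siRNA and at 9.92 and 5.98 CPM with STAT6 siRNA, with both treated libraries below both controls (log2 fold change -2.22, SE 0.72, unadjusted p = 0.00834, adjusted p = 1.00). In SOX4 knockout cells STAT6 fell from 32 and 13.2 to 2.76 and 2.2 CPM (log2 fold change -3.18, adjusted p = 0.0275, edgeR).

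In wild-type Hep3B cells the members spanned a wide range of levels. Per kilobase of transcript, APOA2 was highest at 3306.4 ± 1052.3 CPM per kb (SD, n = 2), ranking 2 of 14246 genes with a length. APOE followed at 876.5 ± 127.9 and ranked 35. APOB (135.2 ± 12.7), APOA1 (105.8 ± 0.352) and APOC1 (104.3 ± 9.21) formed a middle group, in which the libraries of APOA1 lay within the range of those of APOC1, while those of APOB lay above both. APOC2 (49.3 ± 20.7) and APOH (49.1 ± 11.4) overlapped. APOC3 and MTTP were low, at 5.17 and 1.22 CPM per kb. APOA5 had 0 counts in both Hep3B libraries, which allows up to 0.162 and 0.166 CPM of the library totals. In SOX4 knockout cells the order changed below the top 2 genes, since APOA1 (560.3 ± 340.2) and APOH (474.7 ± 340.7) stood above APOB (280.8 ± 111.6), although the libraries of the 3 genes overlapped. In both siRNA groups APOA2, APOE and APOA1 were again the 3 highest, and MTTP the lowest listed member.

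The members' counts together made up 0.516% and 0.438% of the 2 Hep3B libraries and 1.38% and 0.723% of the SOX4 knockout libraries. With scramble siRNA they made up 0.666% and 0.633%, and with STAT6 siRNA 0.854% and 0.748%. By this share the treated libraries stood above both of their controls in each table. On the TMM scale the members summed to 5418.2 and 4189.7 CPM in Hep3B and 13246.8 and 7523.2 CPM in the knockout. The siRNA groups overlapped on that scale, at 6809.7 and 5703.4 CPM with scramble siRNA and 10206.1 and 6805.3 CPM with STAT6 siRNA. APOB alone gave 37.6% to 42.5% of the members' counts in the 4 libraries of the first table. In the second table it gave 6.03% and 8.21% in both libraries numbered 1, and 35.9% and 34.2% in those numbered 2.

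The first comparison asked which members differ when SOX4, a high-mobility-group transcription factor, is lost. Of 9 members tested, 4 rose and 0 fell at an adjusted p below 0.05 (edgeR quasi-likelihood test, Benjamini-Hochberg adjusted over all 14415 genes tested). Of all genes tested, 5.89% were called in either direction and 4.5% were called higher. The members that rose were APOC3, APOH, MTTP and APOA1. The median log2 fold change of the 9 members was 1.16, against 0.01 over all genes, and all 9 were above 0, as were 50.4% of all genes. In 8 of the 9 members both knockout libraries lay above both Hep3B libraries, a pattern that 30.6% of all genes showed. These are counts over genes that share the same 4 libraries.

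APOC3, an inhibitor of triglyceride clearance, showed the largest log2 fold change of the members. Its level was 2.78 and 2.9 CPM in Hep3B and 37.9 and 21.4 CPM in SOX4 knockout cells. Both knockout libraries were far above the closely matched controls, a 10.4-fold difference (log2 fold change 3.38, SE 0.48, adjusted p = 0.0179). In raw counts this was 49 and 55 against 1000 and 390.

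APOH was at 67.3 and 48.2 CPM in Hep3B and at 841.6 and 275 CPM in SOX4 knockout cells. The groups did not overlap, and library 1 of the knockout was 3.06-fold above library 2. The difference between groups was 9.67-fold (log2 fold change 3.27, SE 0.60, adjusted p = 0.0285).

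MTTP, the lipid transfer protein that APOB needs to form a particle, rose from 6.36 and 2.9 CPM to 45.8 and 23.4 CPM. The knockout libraries lay above both Hep3B libraries, a 7.48-fold difference (log2 fold change 2.90, SE 0.56, adjusted p = 0.0323). It was counted in 2 RefSeq transcripts, and both were higher in both knockout libraries. NM_000253 held 89.7 and 27.1 expected counts in Hep3B and 943.3 and 223.7 in the knockout libraries, and NM_001300785 held 22.3 and 27.9 against 265.7 and 202.3.

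APOA1, the major protein of high-density lipoprotein, was at 100.9 and 101.4 CPM in Hep3B and at 765.6 and 305.6 CPM in SOX4 knockout cells. The controls were nearly equal and the knockout libraries were apart from each other but both above them, a 5.3-fold difference (log2 fold change 2.40, SE 0.51, adjusted p = 0.0413). Of its 3 RefSeq transcripts, NM_001318018 held 55.3% and 57.8% of the expected counts in Hep3B and 57.5% and 57.3% in the knockout libraries, so the split between transcripts was alike.

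All 4 calls needed both knockout libraries. With library 1 of the knockout left out, the log2 fold changes were 1.61 for APOA1, 2.26 for APOH, 2.35 for MTTP and 2.92 for APOC3, and the adjusted p ranged from 0.0999 to 0.222. With library 2 of the knockout left out they were 2.89, 3.84, 3.28 and 3.70, and the adjusted p ranged from 0.057 to 0.106. In these fits the lone knockout library is assumed to vary like the controls. With either Hep3B library left out, 4 members were called, and none of the related genes named below stayed called in a fit with 1 knockout library. APOA1 was also the call that a correction for GC content and transcript length removed (log2 fold change 1.95, adjusted p = 0.0905).

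**Figure D1:**
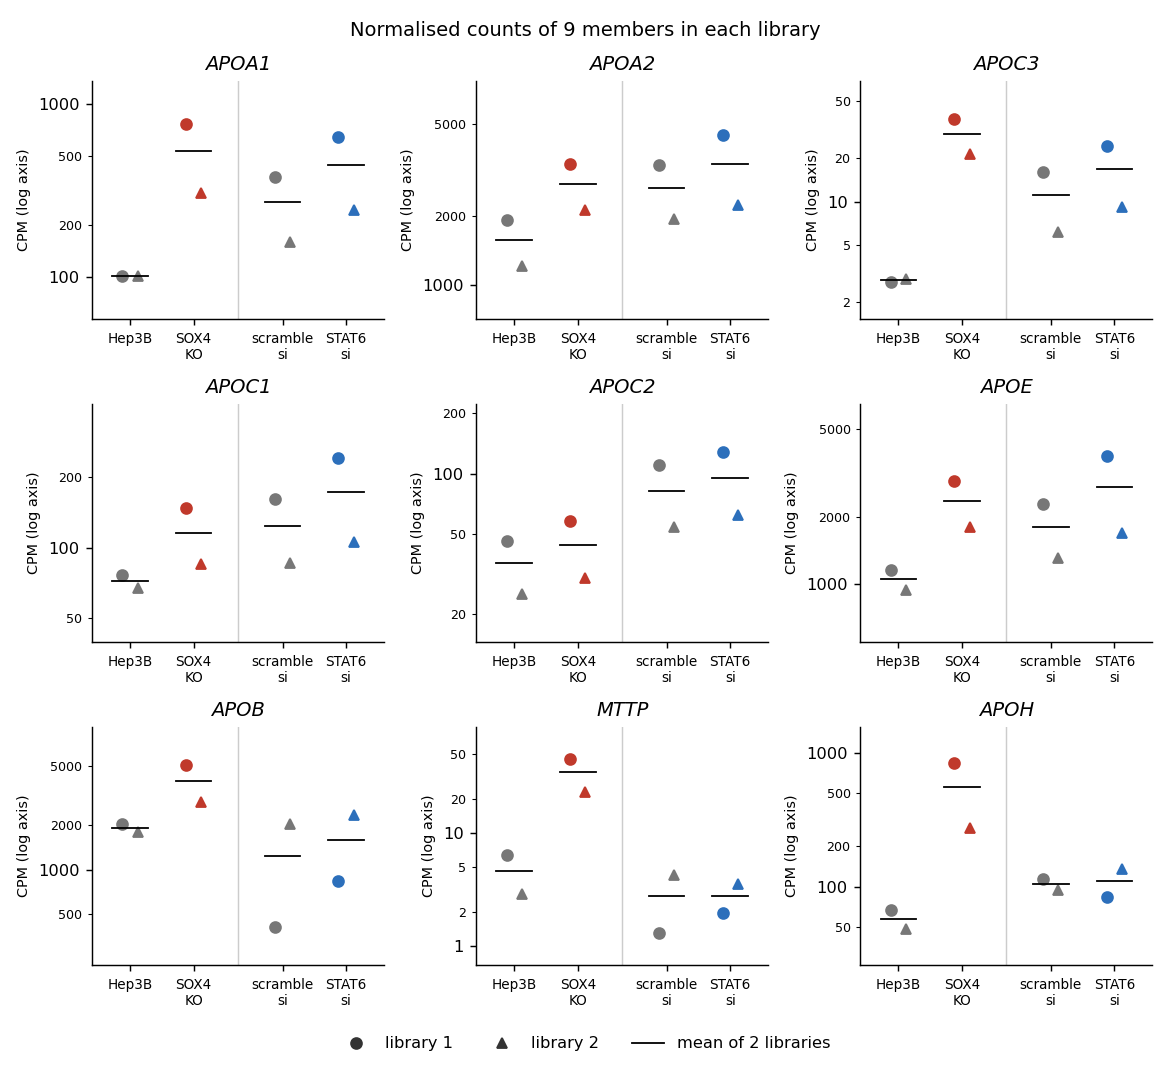
TMM-scaled CPM of 9 members on log axes, 1 panel per gene, with circles for library 1, triangles for library 2 and a bar at the mean of 2 libraries; the grey line separates the 2 tables, which were scaled apart. In every panel but that of APOC2 both SOX4 knockout libraries sit above both Hep3B libraries, the called APOC3, APOH, MTTP and APOA1 included. In no panel do the STAT6 siRNA libraries clear the scramble libraries.

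The other 5 tested members did not pass the test. APOE was at 1162.2 and 944.8 CPM in Hep3B and at 2910.7 and 1811.9 CPM in SOX4 knockout cells. Its groups did not overlap (log2 fold change 1.16, SE 0.50, unadjusted p = 0.0484, adjusted p = 0.189). APOB, the structural protein of very-low-density lipoprotein, was at 2036 and 1782.5 CPM against 5079.1 and 2850.6 CPM (log2 fold change 1.05, SE 0.55, adjusted p = 0.266). Its partner MTTP thus passed the test and APOB did not, and whether their changes differ from each other was not tested. APOA2 was at 1919.9 and 1214.5 against 3359.8 and 2119.7 CPM (log2 fold change 0.81, adjusted p = 0.374), and APOC1 at 76.3 and 67.4 against 147.4 and 85 CPM (log2 fold change 0.69, adjusted p = 0.292). For both genes the knockout libraries lay above the controls. APOC2, at 46.5 and 25.2 against 58.2 and 30.4 CPM, was the member whose groups overlapped (log2 fold change 0.31, SE 0.47, adjusted p = 0.717). APOA5 had 18 and 4 counts in the knockout libraries against 0 and 0, too few for the filter on low counts. Without that filter its adjusted p was 0.108, and DESeq2 gave 0.148.

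Within each library number, the knockout value minus the Hep3B value was above 0 for all 9 tested members in both numbers, a pattern that 36.3% of all genes showed. The difference was larger in number 1 than in number 2 for 8 of the 9 members. APOA1 gave 2.92 and 1.59 on the log2 scale, APOC3 3.72 and 2.84, APOH 3.64 and 2.51, and APOB 1.32 and 0.68. MTTP alone gave a slightly larger difference in number 2 (2.83 and 2.97). The numbers are names of libraries here, and nothing in the labels ties them to a shared day.

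The second comparison asked how the members respond when STAT6, a signal transducer activated by interleukin-4 and a protein the study places downstream of SOX4, is knocked down. Of 9 members tested, 0 were called (edgeR), 0 had an unadjusted p below 0.05 and DESeq2 called 0. Of all 13554 genes tested, 0% were called, DESeq2 called 0 genes, and 14 had an unadjusted p below 0.05. These tests leave library number out, so the gap between libraries 1 and 2 described below counts as spread. STAT6 itself was not called, and 0 calls do not show that the members were unchanged. With library number as a term, edgeR called 62 genes and 0 members. With GC and length offsets as well, it called 370 genes and 1 member, APOB (log2 fold change 0.69, adjusted p = 7.79e-05). Without those terms, the median log2 fold change of the members was 0.37, against -0.03 over all genes, and 8 of 9 were above 0, as were 46.3% of all genes. In 0 of the 9 members did both STAT6 siRNA libraries lie above both scramble libraries, a pattern that 2.74% of all genes showed.

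The siRNA groups overlapped for all 9 members. APOA1 was at 380.1 and 159.9 CPM with scramble siRNA and at 640.7 and 242.6 CPM with STAT6 siRNA. Library 2 of the STAT6 siRNA group lay below library 1 of the scramble group, so the groups overlapped (log2 fold change 0.71, SE 0.65, adjusted p = 1.00). APOE was at 2300.3 and 1313.3 against 3765.1 and 1698.7 CPM (log2 fold change 0.60, SE 0.62), and APOC3 at 16 and 6.18 against 24.5 and 9.24 CPM (log2 fold change 0.60, SE 0.80). Both genes showed the order of APOA1, with library 1 the higher in each group. APOB ran the other way, at 410.5 and 2045.8 CPM with scramble siRNA and 837.6 and 2327.6 CPM with STAT6 siRNA (log2 fold change 0.37, SE 0.75). APOA2, APOC1 and APOC2 gave log2 fold changes of 0.35, 0.49 and 0.21. APOH, at 114.2 and 94.6 against 84.1 and 136.3 CPM, and MTTP, at 1.3 and 4.27 against 1.98 and 3.55 CPM, gave 0.08 and -0.01.

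Compared within a library number, the STAT6 siRNA value was higher than the scramble value in both numbers for 7 of the 9 members, and 29.3% of all genes showed this. APOA1 gave 0.75 and 0.60 on the log2 scale, APOC3 0.61 and 0.57, APOE 0.71 and 0.37, and APOC1 0.58 and 0.30. APOB gave 1.03 and 0.19. The differences of APOH (-0.44 and 0.53) and MTTP (0.57 and -0.26) had opposite signs. These are descriptions of 2 differences each.

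**Figure D2:**
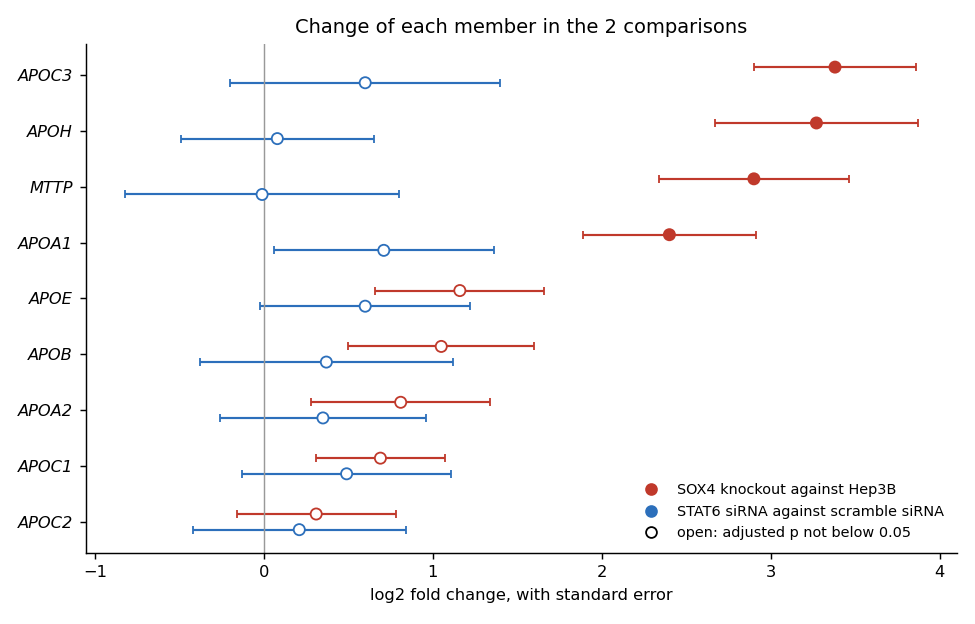
Log2 fold change of each tested member with its standard error, for SOX4 knockout against Hep3B (red) and STAT6 siRNA against scramble siRNA (blue); filled points have an adjusted p below 0.05. The 4 filled points, APOC3, APOH, MTTP and APOA1, lie between 2.40 and 3.38, and the blue points lie between -0.01 and 0.71.

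The libraries numbered 1 and 2 of the siRNA table differed in a way that followed base composition. On the log2 scale, library 2 over library 1 was 2.32 for APOB and 1.64 for MTTP with scramble siRNA, and 1.47 and 0.81 with STAT6 siRNA. The transcripts of both genes are poor in G and C, at 43.5% and 42.6%. APOC3 (59.1% GC) gave -1.36 and -1.39, and APOA1 (63.4% GC) gave -1.25 and -1.40. APOH, at 42.9% GC, gave -0.27 with scramble siRNA and 0.70 with STAT6 siRNA. Across the 9 members, which share these libraries, GC content and the ratio had a Pearson r of -0.72 and -0.85 and a Spearman rho of -0.7 and -0.83 in the 2 groups. The same relation ran through all tested genes, with a Spearman rho of -0.75 and -0.82. In the first table the rho over all genes was -0.09 in Hep3B and 0.29 in the knockout libraries. The values of APOB and MTTP in any single siRNA library therefore differ with library number by more than with treatment.

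**Figure D3:**
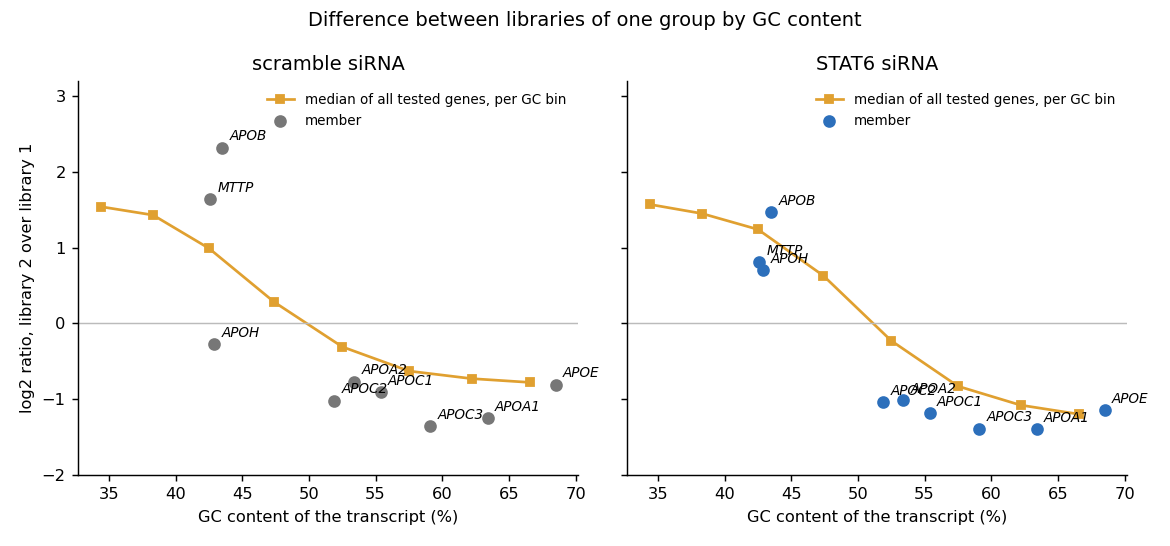
Log2 ratio of library 2 to library 1 against the GC content of the transcript (%), for scramble siRNA and STAT6 siRNA; points are the 9 members and orange squares are medians of all tested genes per GC bin. In both panels APOB and MTTP lie above 0, and the 6 members over 50% GC lie below it.

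The change in SOX4 knockout cells was set against that in STAT6 siRNA cells in 1 fit of all 8 libraries. The knockout effect minus the siRNA effect was 3.09 for APOH (SE 0.81, unadjusted p = 0.00179, adjusted p = 0.204), 2.81 for MTTP (SE 0.98, adjusted p = 0.487) and 2.64 for APOC3 (SE 0.95, adjusted p = 0.495). For APOA1 it was 1.56 (SE 0.89, adjusted p = 0.892). The other 5 members ranged from -0.03 to 0.59. No member passed the test, and 0.0769% of all genes did. With library number as a term, the adjusted p (edgeR) was 0.0602 for APOC3, 0.0614 for APOH, 0.0648 for MTTP and 0.194 for APOA1. With GC and length offsets instead, it was 0.0745, 0.08, 0.136 and 0.29. Neither fit called a member. APOC3, APOH, MTTP and APOA1 were called in the knockout comparison and not in the siRNA comparison, but a difference between the 2 was thus not shown for any of them.

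Over all genes in the knockout comparison, edgeR called 4.5% higher and 5.89% in either direction, and DESeq2 called 2122 of the 16040 genes listed. Of 17 other apolipoproteins, 9 were tested in that comparison, and 2 rose and 0 fell by edgeR, as by DESeq2. APOM, which carries sphingosine-1-phosphate on high-density lipoprotein, rose from 6.36 and 5.01 to 38.4 and 25.6 CPM (log2 fold change 2.49, adjusted p = 0.0254). SAA4, a constitutive serum amyloid A, went from 0.227 and 0.0527 to 5.19 and 4.34 CPM (adjusted p = 0.0244), on so few control counts that its fitted fold depends on the prior count. APOD was listed at 0 and 0.0527 against 0.682 and 0.825 CPM (adjusted p = 0.0622). The median of this list was 0.64.

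Of 17 genes for assembly and secretion, 1 rose and 0 fell by edgeR, near the share over all genes, with a median of -0.10. DESeq2 called 3 higher and 0 lower. CIDEB, which helps load lipid onto nascent very-low-density lipoprotein, rose from 11.9 and 16.9 to 88.8 and 42.6 CPM (log2 fold change 2.19, adjusted p = 0.0414). SMLR1 was at 6.47 and 4.17 against 54.9 and 8.85 CPM (log2 fold change 2.58, adjusted p = 0.0951). P4HB, the small subunit that pairs with MTTP, was at 2068.5 and 1960.4 against 1115.2 and 2031.1 CPM (log2 fold change -0.36, adjusted p = 0.696), and was picked for its tie to MTTP after its values were seen.

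Of 13 lipases, transfer proteins and inhibitors, 9 were tested, and their median was 1.07. ANGPTL4, a secreted inhibitor of lipoprotein lipase, was at 209.1 and 0.897 CPM in Hep3B and at 12.7 and 4.84 CPM in the knockout (adjusted p = 0.227), so its controls enclosed both knockout values.

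Of 15 tested receptors and genes for uptake and efflux, 1 rose and 0 fell by edgeR, near the share over all genes. DESeq2 called 3 higher and 1, VLDLR, lower. SDC1, a heparan sulfate proteoglycan that binds remnant particles, rose from 45.9 and 67.9 to 189.2 and 184.5 CPM (log2 fold change 1.72, adjusted p = 0.04). VLDLR, a receptor for triglyceride-rich particles, was at 51.6 and 26.4 against 9.73 and 11.7 CPM (log2 fold change -1.87, adjusted p = 0.0516), and ABCG1, a sterol exporter, gave 1.97 (adjusted p = 0.131).

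Of 18 tested genes of lipid supply, 1 rose and 0 fell by edgeR, near the share over all genes. DESeq2 called 3 higher and 1, PLIN2, lower. PNPLA3, a lipid droplet protein, rose from 23.4 and 21.9 to 74.6 and 81.9 CPM (log2 fold change 1.79, adjusted p = 0.0323). AADAC, an esterase, gave 2.72 (adjusted p = 0.0676). PLIN2, a lipid droplet coat protein, was at 2132.6 and 354.3 in Hep3B against 156.7 and 296 CPM (log2 fold change -2.46, adjusted p = 0.112), a spread set largely by library 1 of Hep3B.

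None of the 22 regulators passed the edgeR test. An unadjusted p below 0.05 was found for 4 of them, and for 3752 of all 14415 genes tested (edgeR). DESeq2 called 2 higher and 1 lower, beside 2122 of all 16040 genes listed. PROX1 was at 140.8 and 62.7 against 274.8 and 309 CPM (log2 fold change 1.52, adjusted p = 0.0897). CREB3L3, a factor of hepatic triglyceride metabolism, was at 10.8 and 11.1 against 52.6 and 8.19 CPM, with overlapping groups (adjusted p = 0.258). HNF4A, a main activator of apolipoprotein genes in liver, was picked after its values were seen, at 193.5 and 168.4 against 392.8 and 302.1 CPM (log2 fold change 0.94, adjusted p = 0.157). Its paralogue HNF4G, picked likewise, was at 36.3 and 30.3 against 17.4 and 10.2 CPM (log2 fold change -1.27, adjusted p = 0.108), with both knockout libraries below both controls, and was the regulator that DESeq2 called lower.

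Genes that lie next to the members on the chromosome did not all move with them. Among 6 tested neighbours of the 11q23 cluster, TAGLN, an actin-binding protein of smooth muscle and fibroblasts, rose from 4.99 and 7.7 to 87.1 and 51 CPM (log2 fold change 3.44, adjusted p = 0.0153). SIDT2 gave 1.16 (adjusted p = 0.173), and the list's median was -0.17 and its lowest value -1.09. Among 7 tested neighbours of the 19q13 cluster, which holds APOE, APOC1 and APOC2, 0 passed the edgeR test and DESeq2 called 0. An unadjusted p below 0.05 was found for 1 of them, beside 3752 of all 14415 genes tested (edgeR). BCAM, a laminin receptor, gave 1.12 (adjusted p = 0.154) and CBLC 0.82 (adjusted p = 0.252), with a median of 0.49.

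**Figure D4:**
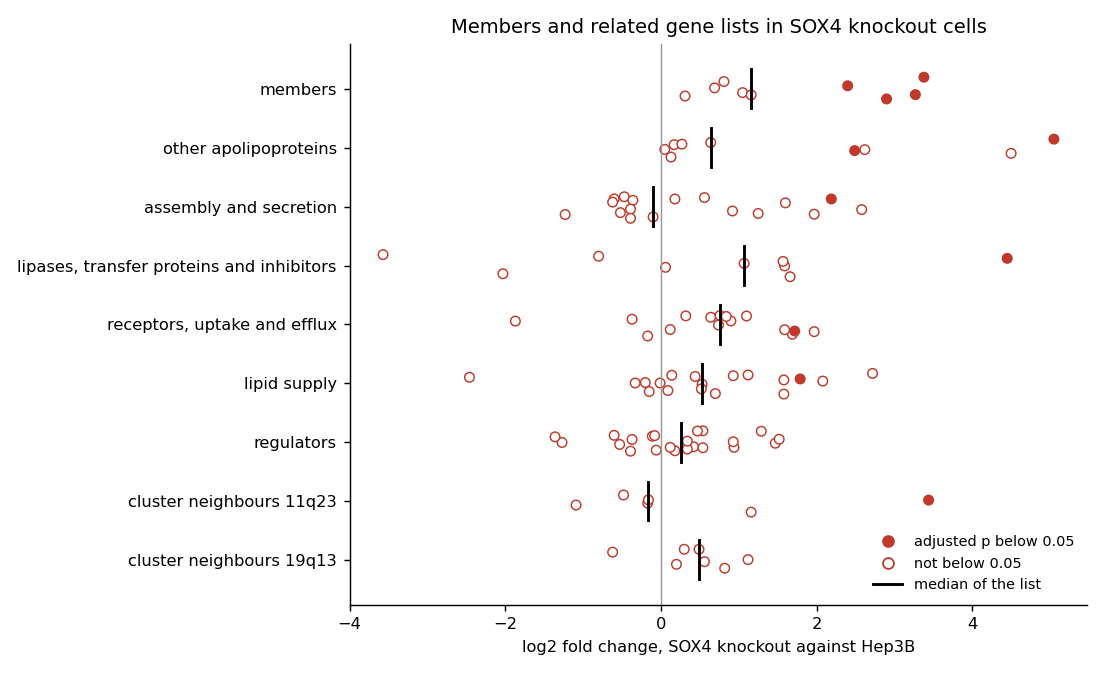
Log2 fold change in SOX4 knockout against Hep3B for the members and 8 related lists, 1 point per tested gene, filled at an adjusted p below 0.05, with a black bar at the list's median. The members' median of 1.16 stands beside 1.07 for lipases, transfer proteins and inhibitors, 0.64 for other apolipoproteins and -0.10 for assembly and secretion.

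With STAT6 siRNA, 0 genes of these 8 lists were called by edgeR and 0 by DESeq2, and 1 of them, in the list of other apolipoproteins, had an unadjusted p below 0.05. The medians ran from -0.09 to 0.46. APOM was at 14 and 7.55 against 21.2 and 10.4 CPM (log2 fold change 0.55), and CIDEB at 22 and 9.06 against 36.2 and 15.1 CPM (0.72). Both showed overlapping groups and a wide gap between libraries 1 and 2.

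The genes whose profile was most like the mean profile of the tested members over the 8 libraries were C2orf54 (Pearson r 0.996), TEP1 (0.992), CLTCL1 (0.991), TRIM3 (0.99) and AMIGO1 (0.988), out of 10046 that averaged 100 or more counts in the libraries of each table. The profile, on the log2 scale and centred on each table's controls, was 2.19 and 1.23 in the SOX4 knockout libraries, against 0.63 and 0.16 after STAT6 siRNA. The likeness is over 8 libraries that differ in depth and, within the siRNA groups, in a way that followed GC content. Picked from that many genes it is a description. Between members, the profiles of APOA1 and APOC3 and of APOA1 and APOE each had an r of 0.97, APOH and MTTP had 0.92, and APOB had 0.03 with APOE and 0.71 with MTTP.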

How the data were processed

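Expression was measured in 8 Hep3B libraries made with an Illumina stranded mRNA kit from TRIzol RNA. The deposited tables hold expected counts per RefSeq transcript (20.3% and 20.1% of values are whole, so reads were shared between transcripts), and the smallest transcript sum over a table is 10. The submitters' processing notes name STAR, Partek and hg38, without versions. Whether the counting used strand is not given in the sources used here. The authors' own comparisons were not used, and 0 columns lacked a sample.

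The expected counts, as deposited, were summed per gene, rounded and tested with edgeR 4.0.16 in R 4.3.3 (filterByExpr, TMM, glmQLFit, glmQLFTest), each table alone, at a Benjamini-Hochberg adjusted p below 0.05. SE is the absolute log2 fold change over the root of F. Log2 CPM used a prior count of 2. Levels per kilobase, GC content and length came from GENCODE transcripts for 15917 of 16169 genes. Transcripts were matched by RefSeq accession, as for all members, or else the longest of the gene symbol was used. DESeq2 1.42.0 and mgcv 1.9.3, for GC and length smooths, served alternatives. Named genes were the members, list genes called or with the 2 largest changes, SOX4, STAT6 and the 5 closest profiles. The members and lists were chosen with earlier results of these data known. No 2 libraries agreed within sampling noise. On simulated data, the test recovered 88 of 100 genes changed by 3 and 13 of 100 changed by 1.5 (log2) in the knockout design of 14415 genes, and 44 and 5 of 100 in the siRNA design of 13554 genes. APOC4-APOC2 readthrough transcripts were left out, and some genes of the lists are not reported here. Depth ran from 16266282 to 25353113 counts, and count limits cover counting error only.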

Additional observations from a re-analysis of the deposited data

How the results depend on the processing

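Of the 9 tested members, 4 were called in the knockout comparison by edgeR, and 849 genes in all. Genes called in that comparison numbered 2122 with DESeq2 (64.1% of them higher, against 76.3% with edgeR), 518 where each library had to hold 10 or more counts of a gene, 495 with GC and length offsets, 438 in one fit of all 8 libraries, and 21 to 2298 when one library was left out. The number of members called was 0 to 4 when one library was left out (0 without either knockout library). The replicate block (library number as a term) called 4 members. With the replicate block and the GC and length offsets together, 2 members and 210 genes were called, APOC3 losing its call at an adjusted p of 0.0542 and APOA1 at 0.128. Across all genes, the library 1 minus library 2 differences of control and treated groups had an r of -0.08 in the first table and 0.87 in the second, over 2 pairs each. Libraries of the same number in the siRNA table thus shared a difference, and the labels do not say what they share. The main tests do not pair them. In the siRNA comparison, the replicate block called 62 genes and 0 members against 0 and 0 without it, and the block with the offsets called 370 genes and 1 member, APOB (log2 fold change 0.69, adjusted p = 7.79e-05). APOA1 was also not called in the fit of 8 libraries (adjusted p = 0.0696).

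Among single members, MTTP in the siRNA comparison, -0.01 by edgeR, was 0.06 with median-of-ratios factors, 0.05 with DESeq2, 0.00 with glmQLFit's newer setting, 0.05 with the replicate block, 0.25 with the offsets, 0.18 with both, and 0.03 in the fit of 8 libraries. Leaving out one library sets unequal library numbers against each other. It moved the siRNA log2 fold changes over -0.16 to 1.55 for APOA1, -0.24 to 0.86 for APOA2, -0.56 to 1.95 for APOB, -0.22 to 1.09 for APOC1, -0.40 to 0.88 for APOC2, -0.26 to 1.53 for APOC3, -0.09 to 1.13 for APOE, -0.32 to 0.38 for APOH and -0.57 to 1.10 for MTTP, and that of APOC2 in the knockout comparison over -0.23 to 0.76. The difference between comparisons turned sign for APOC1 with median-of-ratios factors (-0.02) and for APOC2 with the offsets (0.03). The cause of these shifts was not tested. The other 260 values of single members kept their direction and their side of the threshold. Depth limits MTTP, at 1.3 to 4.27 CPM in the siRNA libraries, and APOA5.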

Other observations

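Hepatocyte genes outside the lipoprotein lists were read beside the members. In SOX4 knockout cells ALB was at 28444.8 and 13643.7 CPM, against 7457.5 and 6824.4 CPM in Hep3B (log2 fold change 1.56, adjusted p = 0.22), and SERPINA1, the main plasma protease inhibitor of liver, at 9664.2 and 9337.3 against 2708.8 and 2034.2 CPM (log2 fold change 2.00, adjusted p = 0.0878). AFP, a fetal liver protein, was at 75.2 and 30.9 against 149 and 30.6 CPM (log2 fold change -0.76, adjusted p = 0.542), with overlapping groups. None of these 3 passed the edgeR test, while DESeq2 called ALB and SERPINA1 higher.

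TM6SF2, which acts in lipidation of very-low-density lipoprotein, was at 1.82 and 1.16 against 6.51 and 5.17 CPM (log2 fold change 1.97, adjusted p = 0.0892). TM6SF2 and the 3 hepatocyte genes above were chosen after their values were seen.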
